A study of Homo sapiens with 8 samples.

Results

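Stalled ribosomes are recognised, taken apart and cleared by a set of dedicated factors, and 10 genes of this system were followed after knockdown of RPS29 in SH-SY5Y cells. The genes were chosen by symbol from both deposited count tables: ZNF598, RNF10, USP10, GCN1, ASCC3, PELO, HBS1L, ABCE1, NEMF and LTN1. All 10 were listed in both tables, which share 12873 symbols. SH-SY5Y is an established human neuroblastoma line, and RPS29 encodes a protein of the head of the small (40S) ribosomal subunit. Cells with the shRPS29 hairpin, labelled RPS29 knockdown, were compared with cells with the shCONT hairpin, labelled control. RNA-seq of total RNA and Ribo-seq of ribosome-protected fragments each had 2 shRPS29 and 2 shCONT libraries. The labels used here state neither the vector, the number of hairpins or clones nor the time after knockdown, and nothing says whether the replicates were separate cultures. The p-values therefore measure only the spread between these libraries, which may be technical.

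In this pathway a trailing ribosome runs into a stalled one. ZNF598, a ubiquitin ligase, marks small-subunit proteins of the collided pair, and the helicase ASCC3 pulls the leading ribosome apart. An empty ribosome, or one at the end of a broken mRNA, is opened instead by PELO and the GTPase HBS1L together with the recycling ATPase ABCE1. NEMF and the ubiquitin ligase LTN1 then act on the large (60S) subunit that still holds the unfinished chain. RNF10, a second ligase, marks other small-subunit proteins, and USP10 removes such marks so that the subunit can be used again. GCN1 binds collided ribosomes and is needed to activate the stress kinase GCN2.

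The knockdown was visible in RPS29 itself, at 7.53 and 6.46 CPM (counts scaled to library size with TMM factors) in the shRPS29 RNA libraries against 137 and 160 CPM in the shCONT libraries (log2 fold change -4.40, SE 0.115). RNA-seq libraries held 17539104 to 19156104 counts each, and Ribo-seq libraries 2630463 to 4375971. The 10 noradrenergic markers of the line summed to 6411 and 6217 RNA CPM in shRPS29 cells and 5822 and 5981 CPM in shCONT cells, while 10 epithelial markers (8 listed, without GRHL2 and ESRP1) summed to at most 12.0 and 13.9 CPM in those groups, and 10 blood cell markers (6 listed, with CD3E, SPI1 and TYROBP among those not listed) to at most 35.6 and 40.5 CPM. In Ribo-seq, genes with almost no RNA (at most 0.1 CPM, 141 genes) carried a median of 0.344 and 0.223 counts per kb of gene span in the shRPS29 libraries and 0.0614 and 0.0459 in the shCONT libraries. That density times the span of a gene gives the background counts expected in it, which are set beside its footprints. Its part in the differences was not tested further.

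The RNA of the 2 ubiquitin ligases of the small subunit moved in opposite directions. ZNF598 (chr16:1997654-2009821) rose to 152 and 159 CPM in shRPS29 cells, against 95.2 and 97.2 CPM in shCONT cells, with 2970 and 2889 counts against 1690 and 1744. Both shRPS29 libraries lay well above both shCONT libraries, a log2 fold change of 0.70 (SE 0.0717, edgeR adjusted p = 7.18e-06), or 1.62-fold. RNF10 (chr12:120534356-120577588) fell to 92.3 and 100 CPM in shRPS29 cells, against 148 and 148 CPM in shCONT cells, with 1801 and 1813 counts against 2625 and 2658 (log2 fold change -0.62, SE 0.0737, edgeR adjusted p = 2.34e-05). Within each library, where scaling has no part, there were 1.65 and 1.59 ZNF598 counts for each RNF10 count in shRPS29 cells and 0.644 and 0.656 in shCONT cells. Of all genes tested, 4.22% had a higher log2 fold change than ZNF598 and 7.19% a lower one than RNF10. Both calls held under each of the 10 alternatives, the removal of any single RNA-seq library included. In bulk RNA, less of a transcript per cell and fewer cells that carry it cannot be told apart.

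The upstream sequences of these ligases are shown because both genes were called in RNA-seq and no other coding gene overlaps either stretch. ABCE1, also called in RNA-seq, is not shown because ANAPC10 overlaps its stretch. Each is the 250 bases before the annotated start in RefSeq (GRCh38.p14), 5′ to 3′ on the strand of the gene, with matches to the GC box GGGCGG on either strand in capitals. ZNF598 is given from chr16:2009822-2010071 (minus strand) and RNF10 from chr12:120534106-120534355 (plus strand).
ZNF598: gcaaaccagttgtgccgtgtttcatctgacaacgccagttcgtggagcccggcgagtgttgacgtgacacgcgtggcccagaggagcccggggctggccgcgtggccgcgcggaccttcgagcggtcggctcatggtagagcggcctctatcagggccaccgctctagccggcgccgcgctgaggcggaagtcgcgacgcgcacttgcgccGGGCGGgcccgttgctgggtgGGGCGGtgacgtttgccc
RNF10: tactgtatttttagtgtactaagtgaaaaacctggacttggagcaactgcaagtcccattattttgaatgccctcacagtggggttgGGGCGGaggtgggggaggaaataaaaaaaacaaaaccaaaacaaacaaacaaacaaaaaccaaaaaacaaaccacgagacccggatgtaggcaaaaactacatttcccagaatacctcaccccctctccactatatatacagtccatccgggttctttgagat
The ZNF598 stretch was 70.4% G and C with 2 GC boxes and the RNF10 stretch 42.0% with 1, against a median of 58.0% over 27305 promoters, of which 42.3% held a GC box. Of the 9 members with an entry (ASCC3 had none), 3 held a GC box, with USP10 the third. HBS1L, NEMF and USP10 held the NRF1 motif, found in 5.53% of promoters. ABCE1 alone held the cyclic AMP response element TGACGTCA, found in 1.77%. None of the 9 held the E-box CACGTG (6.49% of promoters), the ETS motif CCGGAAGT (3.64%) or the C/EBP-ATF motif TGATGNAA (3.19%). All were searched on both strands. A match describes the letters only, and nothing here measured binding.

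ABCE1 was the other gene that rose. Its RNA (gene at chr4:145098311-145129524) was at 181 and 158 CPM in shRPS29 cells and 142 and 141 CPM in shCONT cells (log2 fold change 0.26, SE 0.0784, edgeR adjusted p = 0.0187). The groups did not overlap, but the shRPS29 libraries differed by 1.15-fold and the shCONT libraries by 1.01-fold. The call ended without shCONT replicate 1 (adjusted p = 0.144), shCONT replicate 2 (0.161) or shRPS29 replicate 1 (0.0555, log2 fold change 0.16). ABCE1 and ANAPC10 share 261 bases of annotated span, and ANAPC10 RNA was at 214 and 177 counts in shRPS29 cells and 129 and 158 in shCONT cells.

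In all, 2 of the 10 genes were called higher, where 14.4% of the 14723 genes tested were, and 1 was called lower, where 16.3% were. Calls are those with a Benjamini-Hochberg adjusted p below 0.05 over all genes tested. The groups of libraries did not overlap for 7 of the 10, close to the 65.2% over all genes. The median log2 fold change was -0.05 for the 10 genes and 0.01 for all genes, and the median absolute log2 fold change was 0.142 against 0.236. At SEs of 0.0714 to 0.0915 the 7 uncalled genes lay between -0.22 and 0.12.

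**Figure D1:**
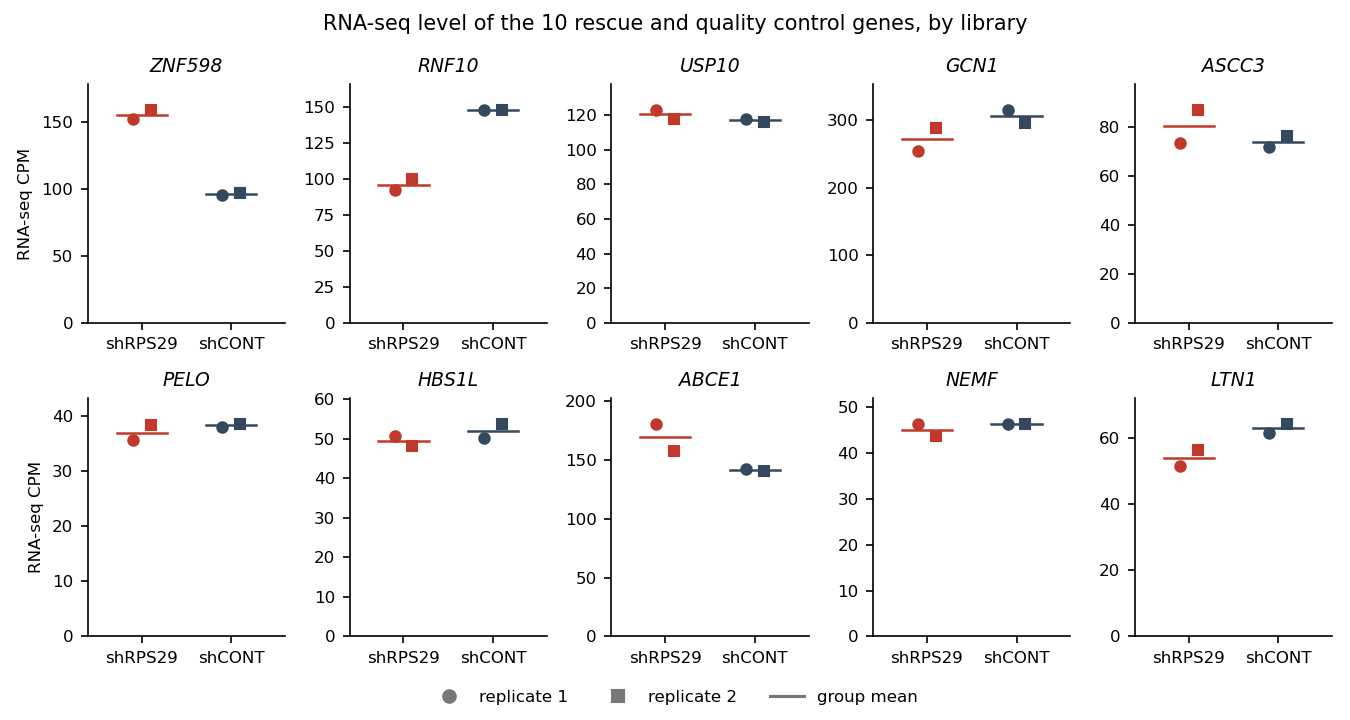
RNA-seq level (CPM, vertical axis from 0) of each of the 10 genes in the 2 shRPS29 and 2 shCONT libraries, with points for single libraries and lines for group means. ZNF598 and ABCE1 are higher and RNF10 lower in shRPS29 cells, while USP10, PELO, HBS1L and NEMF sit at nearly the same level in both groups.

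The splitting and rescue factors other than ABCE1 were close to level in RNA. PELO (chr5:52787916-52804044) was at 35.7 and 38.4 CPM in shRPS29 cells and 38.0 and 38.7 CPM in shCONT cells, and its partner HBS1L (chr6:134960378-135054822) at 50.6 and 48.1 CPM against 50.2 and 53.8 CPM. The groups overlapped for both (log2 fold changes -0.05, SE 0.0915, and -0.08, SE 0.0837). PELO lies wholly within the annotated span of ITGA1, an integrin gene with 1879 and 2096 RNA counts in shRPS29 cells and 1730 and 1805 in shCONT cells, so PELO counts depend on how reads of the shared span were assigned. ASCC3 (chr6:100508194-100881329) was at 73.5 and 86.8 CPM in shRPS29 cells and 71.6 and 76.3 CPM in shCONT cells (0.12, SE 0.0891), with shRPS29 replicate 2 above the other 3 libraries. It was called higher only where shRPS29 replicate 1 was left out (0.23).

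The large-subunit factors also gave no call in RNA. LTN1 (chr21:28928144-28992877) was at 51.7 and 56.4 CPM in shRPS29 cells and 61.5 and 64.5 CPM in shCONT cells, with no overlap (-0.22, SE 0.0830, edgeR adjusted p = 0.0562). It missed the threshold and passed it with a filter of 50 counts in every group mean (adjusted p = 0.0487) or without shRPS29 replicate 2 (0.00583). NEMF (chr14:49782083-49852788) was at 46.2 and 43.6 CPM in shRPS29 cells and 46.4 and 46.3 CPM in shCONT cells (-0.05, SE 0.0848). NEMF lies 183 kb from RPS29 on chromosome 14, and 4303 bases of its span are shared with KLHDC2, which itself rose (0.33, edgeR adjusted p = 0.0185).

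For the remaining regulators, USP10 RNA (chr16:84700000-84779922) was at 123 and 118 CPM in shRPS29 cells and 118 and 116 CPM in shCONT cells, a log2 fold change of 0.04 (SE 0.0714). GCN1 (chr12:120127202-120194715) was at 255 and 289 CPM in shRPS29 cells and 315 and 296 CPM in shCONT cells (-0.17, SE 0.0775, edgeR adjusted p = 0.118). Both shRPS29 libraries were below both shCONT libraries for GCN1. It was called lower without shRPS29 replicate 2 (-0.26).

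The second measurement was of ribosome footprints, and here USP10 had the largest difference of the 10. It had 79 and 142 footprint counts in shRPS29 cells against 23 and 38 in shCONT cells, or 32.9 and 35.6 CPM against 6.86 and 11.5 CPM. Both shRPS29 libraries were far above both shCONT libraries and, before background was subtracted, close to each other. This made a log2 fold change of 1.89 (SE 0.598), or 3.72-fold, with an unadjusted p = 0.00565 and an edgeR adjusted p = 0.0592, so it was not called. It was called with DESeq2 (adjusted p = 0.0458) and with limma-voom (0.0438). Left out one at a time, the 4 Ribo-seq libraries gave log2 fold changes between 1.53 and 2.28 and no call. Over the 79.9 kb of USP10 the expected background was 27.5 and 17.8 counts in shRPS29 cells and 4.91 and 3.67 in shCONT cells. After its subtraction 51.5 and 124 counts remained in shRPS29 cells against 18.1 and 34.3 in shCONT cells, a log2 ratio of 1.73. The expected background is a median over low-RNA genes, and its spread between genes was not measured. Counts left after subtraction can therefore still include background. Of all genes tested in Ribo-seq, 15.0% had a higher log2 fold change than USP10.

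The footprints of USP10 per RNA, its translational efficiency, were called higher in shRPS29 cells, a call that depended on the fit. The ratio of mean Ribo-seq CPM to mean RNA-seq CPM was 0.285 in shRPS29 cells and 0.0785 in shCONT cells. Over every combination of libraries it lay between 0.268 and 0.302 in shRPS29 cells and between 0.0584 and 0.0990 in shCONT cells, with no overlap. These ratios include the expected background, which was 34.8 and 12.5% of USP10 footprints in shRPS29 cells and 21.3 and 9.65% in shCONT cells. The assay-by-condition term of the edgeR model over all 8 libraries was 1.86 on the log2 scale (SE 0.384, adjusted p = 0.0424), and 11.3% of the genes tested had a higher one. USP10 was the 1 member called in this test and was called higher, where 2.9% of the 10648 genes tested were called higher and 1.35% lower. This test uses the same RNA libraries as the RNA-seq comparison, so the 2 are not independent. The call ended with no count filter (edgeR adjusted p = 0.0553), with the replicate block (0.0690) and with a block by culture over both assays (0.0680). It held with DESeq2 (1.37e-04) and with limma-voom (0.0352). The edgeR model gives a gene 1 dispersion for both assays although footprints varied more than RNA, so its SEs can understate the spread of footprints. USP10 was not called without any single RNA-seq library and was called without any single Ribo-seq library. These fits cannot decide how stable the call is, since a group of 1 library has no spread of its own and the shared dispersion then rests on the other groups.

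Footprint sums of the marker lists also differed between the groups. In Ribo-seq the noradrenergic markers (9 listed) summed to 439 and 910 CPM in shRPS29 cells and 1141 and 1249 CPM in shCONT cells. The blood cell markers (5 listed) summed to 92.3 and 55.7 CPM in shRPS29 cells against 38.8 and 38.5 CPM in shCONT cells, and the epithelial markers (8 listed) to 49.9 and 23.8 CPM in shRPS29 cells, with shCONT replicate 2 at 19.4 CPM and shCONT replicate 1 between the shRPS29 libraries. Of the 4 tested blood cell markers edgeR called LCP1 higher in footprints (2.40, adjusted p = 0.0318), with mean RNA of 3.80 CPM in shRPS29 and 5.63 CPM in shCONT cells. Of the 3 tested epithelial markers it called GRHL2 higher (3.60, adjusted p = 0.0344), a gene not listed in RNA-seq. It called 0 markers lower, and 0 of the 9 noradrenergic markers. Single markers did not all follow their sum. CORO1A alone of the 4 tested blood cell markers had a negative log2 fold change (-1.29). HAND2 alone of the 9 tested noradrenergic markers had a positive one (0.58). The part of these marker shifts in the footprint values of the 10 genes was not tested.

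No footprint change of the 10 genes was called by edgeR, where 7.96% of the 11853 genes tested were called higher and 0.607% lower. USP10 alone had an unadjusted p below 0.05, and DESeq2 and limma-voom each called 1 member, USP10. Groups of libraries did not overlap for 5 of the 10, against 55.7% of all genes. SEs lay between 0.560 and 0.852, so that differences of the sizes given next could not be detected at this depth and replicate spread.

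The footprints of the ligases gave no call, in either direction. ZNF598 had 8 and 40 footprint counts in shRPS29 cells against 25 and 50 in shCONT cells, or means of 6.68 ± 4.74 CPM against 11.3 ± 5.45 CPM (SD, n = 2 each), and the groups overlapped (log2 fold change -0.73, SE 0.811). No increase of ZNF598 footprints beside its RNA increase was detected, but at this SE one of the size of the RNA change could be missed. The ratio of footprints to RNA was 0.0428 in shRPS29 cells and 0.117 in shCONT cells, lower in shRPS29 cells over every combination of libraries, but the difference was not called (-1.37, SE 0.631, edgeR adjusted p = 0.209). That ZNF598 value was -0.78 without Ribo-seq shCONT replicate 2 and -2.53 without Ribo-seq shRPS29 replicate 2, where it was called (adjusted p = 0.0214). RNF10 had 11 and 46 counts in shRPS29 cells against 26 and 36 in shCONT cells (-0.19, SE 0.791). Its expected background in shRPS29 replicate 1 was 14.9 counts, above the 11 observed.

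ABCE1, like ZNF598, had no call in footprints. It had 26 and 29 footprint counts in shRPS29 cells against 36 and 102 in shCONT cells, or 10.8 and 7.27 CPM against 10.7 and 30.9 CPM. The shCONT libraries differed by 2.88-fold, and shRPS29 replicate 1 was level with shCONT replicate 1 before background was subtracted. Expected background was 41.3 and 24.0% of the ABCE1 counts in shRPS29 cells and 5.32 and 1.4% in shCONT cells. After its subtraction the log2 ratio was -1.78. Footprints gave a log2 fold change of -1.21 (SE 0.692, edgeR adjusted p = 0.317) and footprints per RNA one of -1.50 (SE 0.625, adjusted p = 0.172). The value per RNA was -0.58 without Ribo-seq shCONT replicate 2 and -2.11 without Ribo-seq shCONT replicate 1, where it was called (adjusted p = 0.0332).

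GCN1 footprints depended on the replicate, with 59 and 370 counts in shRPS29 cells against 354 and 473 in shCONT cells. In CPM these were 24.5 and 92.8 against 106 and 143, so shRPS29 replicate 1 was far below the other 3 libraries and shRPS29 replicate 2 nearer to them. The log2 fold change of -1.08 (SE 0.625, edgeR adjusted p = 0.325) was -0.41 without shRPS29 replicate 1 and -2.41 without shRPS29 replicate 2. LTN1 had 41 and 74 counts in shRPS29 cells against 92 and 115 in shCONT cells, or 17.0 and 18.6 CPM against 27.4 and 34.9 CPM, with no overlap (-0.80, SE 0.560, edgeR adjusted p = 0.428). Its partner NEMF had 14.6 and 11.5 CPM in shRPS29 cells and 10.4 and 16.7 CPM in shCONT cells, with full overlap (-0.06, SE 0.660). Within each library there were 1.17 and 1.61 LTN1 footprints for each NEMF footprint in shRPS29 cells and 2.63 and 2.09 in shCONT cells. Background was not subtracted in these values. It was expected at 69.6 and 34.3% of NEMF counts in shRPS29 cells and 12.4 and 5.9% in shCONT cells. For LTN1 it was 54.4 and 19.5% against 4.32 and 2.58%. After its subtraction the log2 ratios were -1.05 for NEMF and -1.41 for LTN1.

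PELO had 13 and 23 footprint counts in shRPS29 cells against 22 and 33 in shCONT cells (-0.56, SE 0.852). HBS1L and ASCC3 had positive values, 0.66 (SE 0.698) and 0.56 (SE 0.571), but these are the longest genes of the 10 at 94.4 and 373 kb. HBS1L had 54 and 37 counts in shRPS29 cells against 37 and 29 in shCONT cells, of which 60.2 and 56.9% were expected as background in shRPS29 cells and 15.7 and 15.0% in shCONT cells. ASCC3 had 70 and 99 counts in shRPS29 cells against 48 and 73 in shCONT cells, where the expected background was 128 and 83.2 against 22.9 and 17.1. After subtraction HBS1L was at a log2 ratio of -0.38. ASCC3 and RNF10 had fewer counts than the expected background in shRPS29 replicate 1, so no ratio could be given for either. Of the other 8 genes, 7 had a negative ratio, USP10 being the exception. Of the 7520 tested genes with counts left in every library, 71.5% had a negative ratio, with a median of -0.65. Among the 6557 of them with at least 10 mean RNA CPM, as all 10 genes had, 75.9% were negative, with a median of -0.73. A negative sign is therefore no feature of the 10 genes.

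**Figure D2:**
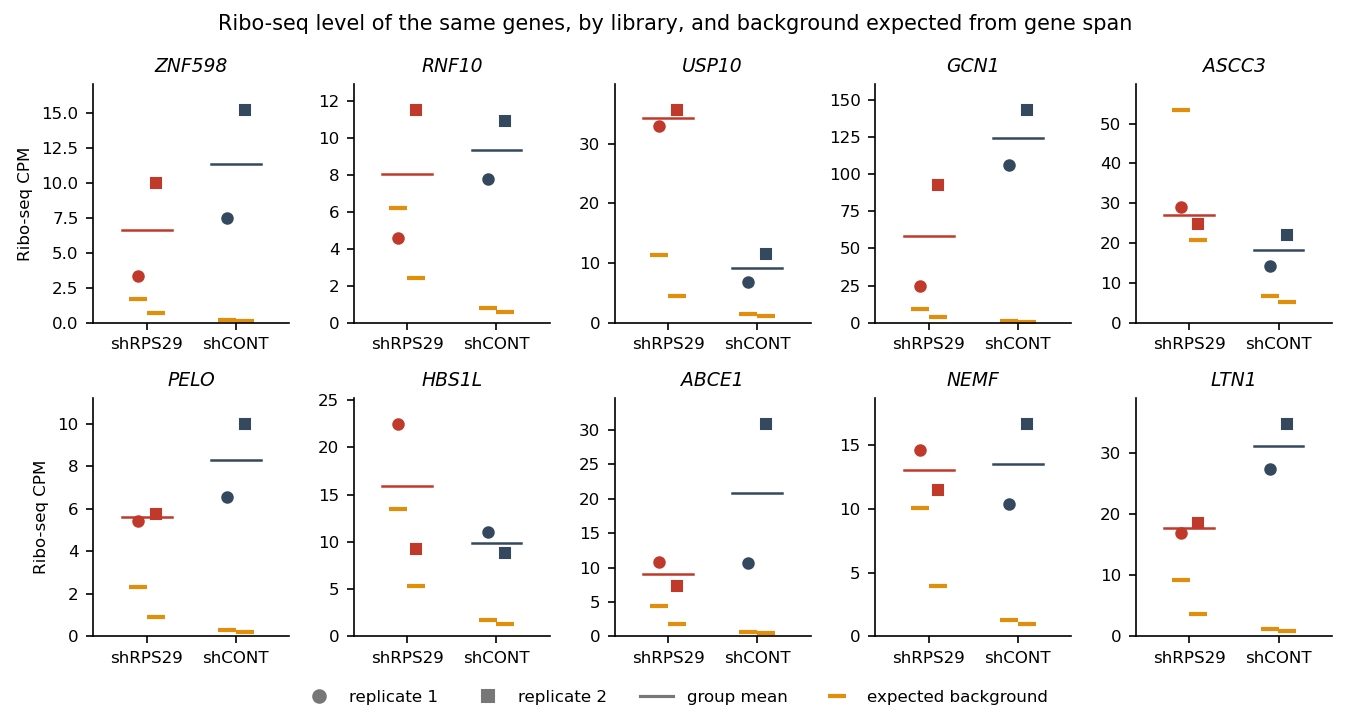
Ribo-seq level (CPM, vertical axis from 0) of the 10 genes in each library, with the background expected from the gene span as short orange bars. USP10 lies above its background and above both shCONT libraries in both shRPS29 libraries, while the background bar of ASCC3 in shRPS29 replicate 1 is above its measured value.

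**Figure D3:**
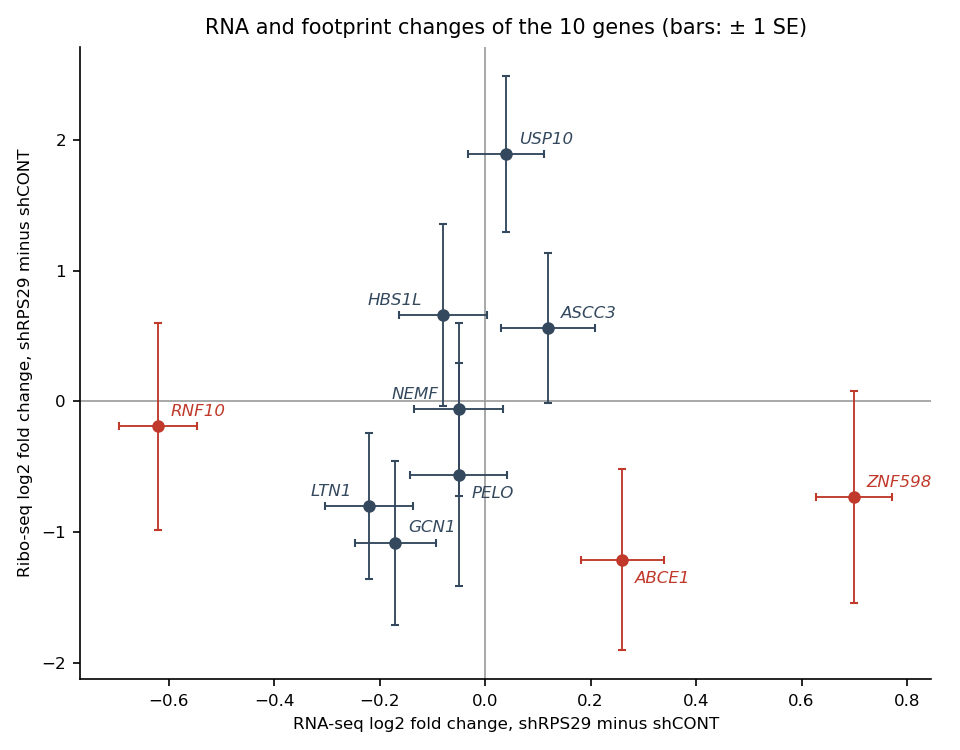
Log2 fold change (shRPS29 minus shCONT) in RNA-seq on the horizontal axis and in Ribo-seq on the vertical axis, with bars of 1 SE and the 3 genes called in RNA-seq in red. USP10 stands alone at 1.89 on the vertical axis with RNA near 0, and ZNF598 and ABCE1 lie right of 0 in RNA and below 0 in footprints.

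Related genes were then read from 6 further lists. Of 20 partners of the 10 genes, 4 rose and 3 fell in RNA, close to the 14.4% higher and 16.3% lower over all genes, with a median log2 fold change of 0.00 against 0.01 for all genes. ASCC2, the ubiquitin-binding subunit that works with ASCC3, was at 120 and 115 CPM in shRPS29 cells and 79.8 and 80.9 CPM in shCONT cells (0.55, SE 0.0740, edgeR adjusted p = 7.19e-05). TRIP4, of the same complex, was called higher (0.32, SE 0.113, edgeR adjusted p = 0.0460), but not with DESeq2 (0.118), with no count filter (0.0534) or without shCONT replicate 1 (0.444). G3BP1 and G3BP2, stress granule proteins that bind USP10, fell by 0.36 and 0.44 on the log2 scale, with G3BP2 at 194 and 209 CPM in shRPS29 cells against 265 and 281 CPM in shCONT cells. RACK1, a scaffold of the small subunit, was called lower (-0.33, edgeR adjusted p = 0.00990), but not without shCONT replicate 1 (0.113) or 2 (0.207). ETF1 and GSPT1, the termination factors related to PELO and HBS1L, were called higher (0.24, adjusted p = 0.0144, and 0.20, adjusted p = 0.0390). Without shCONT replicate 1 or 2 neither was called (0.281 and 0.159 for ETF1, 0.366 and 0.304 for GSPT1). The replicate block also ended the calls of TRIP4 (0.0635), RACK1 (0.0580), ETF1 (0.0574) and GSPT1 (0.117). Without shCONT replicate 1 the partners called higher numbered 1, and without shCONT replicate 2 they numbered 2, with 1 called lower. The partners called lower numbered 6 without shRPS29 replicate 1. In Ribo-seq 1 of 19 partners was called lower and 0 higher, against 0.607% lower and 7.96% higher over all genes. The 1 called was EDF1, a sensor of collided ribosomes. EDF1 had 10 and 47 footprint counts in shRPS29 cells against 110 and 148 in shCONT cells (-2.25, SE 0.640, edgeR adjusted p = 0.0378). Its RNA was not called (-0.11, SE 0.0824), and the EDF1 footprint call ended without shCONT replicate 1 (adjusted p = 0.0710), shCONT replicate 2 (0.272) or shRPS29 replicate 1 (0.171) and among genes with at least 10 RNA CPM (0.0578).

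Among 13 other genes of small-subunit ubiquitin turnover, 3 were called higher and 2 lower, against 14.4% and 16.3% of all genes, the lower ones numbering 1 with DESeq2 and without either shCONT replicate. RNF25, a ligase that acts when a factor is trapped on the ribosome, was at 1123 and 914 RNA counts in shRPS29 cells and 606 and 595 in shCONT cells (0.68, SE 0.0929, edgeR adjusted p = 7.82e-05). The deubiquitinase USP36 (0.37) and the ubiquitin-conjugating enzyme UBE2D2 (0.32) rose too, while the deubiquitinases OTUD3 (-0.42) and USP9X (-0.29) fell. Of 5 small-subunit proteins that carry the marks or are made with ubiquitin, RPS3 (-0.56, SE 0.0978) and RPS27A (-0.32) fell. RPS20 (-0.23), RPS10 (-0.20) and RPS2 (0.03) were not called. The count of these called lower was 1 without shCONT replicate 2 and 4 without shRPS29 replicate 1.

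Downstream of the split, 2 of 10 genes of large-subunit quality control rose and 2 fell, near the 14.4% and 16.3% over all genes. VCP, the ATPase that extracts marked chains, was at 7413 and 7097 RNA counts in shRPS29 cells and 9848 and 9966 in shCONT cells (-0.53, SE 0.0703, edgeR adjusted p = 6.75e-05), and ANKZF1, which frees the chain from its tRNA, was at -0.60 (SE 0.123). RCHY1 (0.37) and KLHDC10 (0.25), which recognise tailed chains, were called higher, KLHDC10 under 5 of 10 alternatives and not with DESeq2 (adjusted p = 0.0763) or the replicate block (0.0613). Genes called higher here numbered 0 without shCONT replicate 2, 1 without shCONT replicate 1 and 4 without shRPS29 replicate 2. Of 12 genes of mRNA surveillance after stalls, 4 fell and 0 rose, against 16.3% lower and 14.4% higher over all genes. DESeq2 called 3 of them, and 3 rose without shRPS29 replicate 2. N4BP2, a relative of the yeast endonuclease Cue2, was at 376 and 388 counts in shRPS29 cells and 691 and 652 in shCONT cells (-0.89, SE 0.104, edgeR adjusted p = 2.19e-05). GTPBP2, a GTPase of ribosome rescue (-0.76, SE 0.103), and the exonuclease XRN1 (-0.73, SE 0.122) fell likewise, and the calls of these 3 held under all 10 alternatives. SKIC2, the helicase of the Ski complex, was called lower (-0.24, edgeR adjusted p = 0.0410) but held under 5 of 10, and not with DESeq2 (0.0870), with the replicate block (0.0789), or without shCONT replicate 1 (0.453), shCONT replicate 2 (0.0558) or shRPS29 replicate 1 (0.0546). In Ribo-seq edgeR called 0 of the genes of either list, DESeq2 and limma-voom called 0 as well, and 1 gene of each had an unadjusted p below 0.05. The footprint medians were -0.58 and -0.46 against 0.04 for all genes. That 0.04 covers genes at every RNA level, and no such median was taken at the RNA level of these lists. By another measure, less the expected background, genes with at least 10 RNA CPM had a median log2 ratio of -0.73. Negative footprint medians, that of UFMylation below included, can therefore not be read as particular to a list.

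UFMylation, the attachment of the small protein UFM1 to the large subunit at the endoplasmic reticulum, had the largest share of RNA increases of these lists, with 6 of 9 genes higher and 1 lower, against 14.4% and 16.3% over all genes, and a median of 0.43. UFM1 itself was at 2004 and 1575 counts in shRPS29 cells and 1157 and 1103 in shCONT cells (0.58, SE 0.0893, edgeR adjusted p = 2.10e-04). The ligase UFL1 (0.43), its anchor DDRGK1 (0.53), the protease UFSP2 (0.55) and its partner ODR4 (0.33) were among those that rose with it. CDK5RAP3, a part of the ligase complex, fell (-0.32). The genes called higher numbered 4 without either shCONT replicate, and CDK5RAP3 lost its call without shCONT replicate 1. In Ribo-seq edgeR, DESeq2 and limma-voom called 0 of 8, with 1 at an unadjusted p below 0.05, and the median was -0.66, with UFM1 at -1.09 (edgeR adjusted p = 0.403), so the RNA increase was not detectable in footprints.

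**Figure D4:**
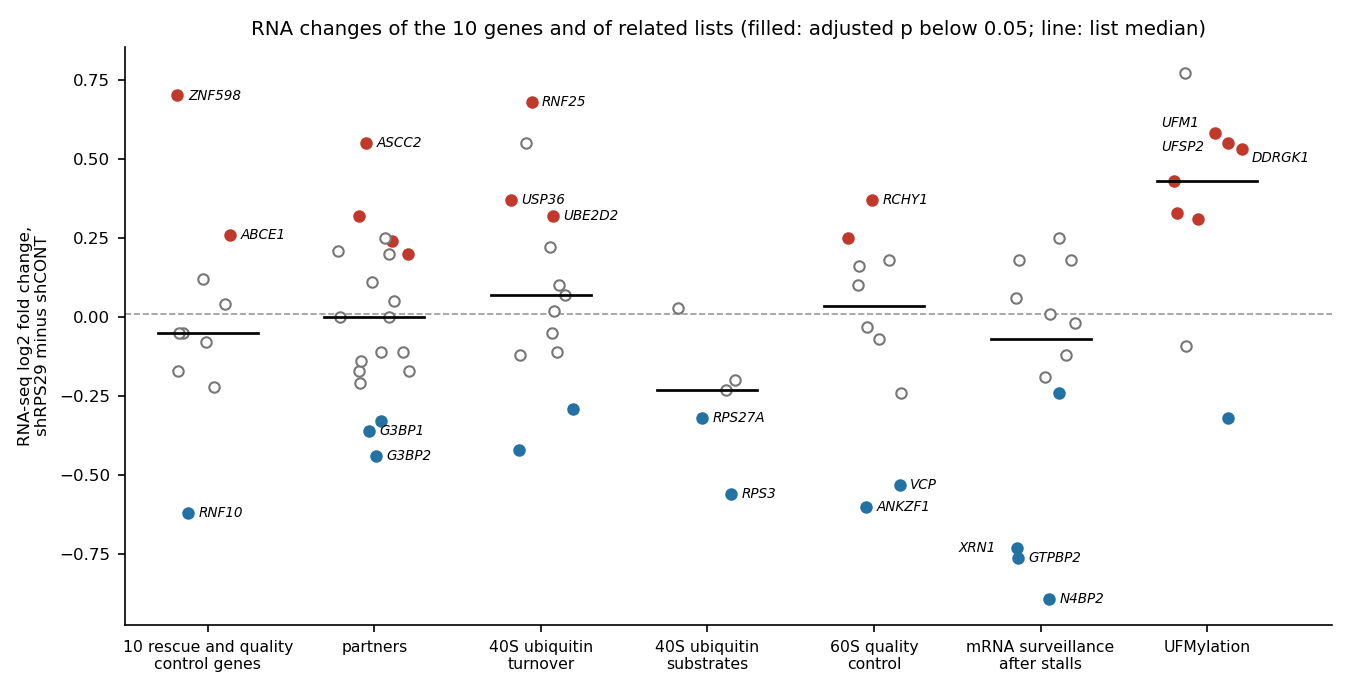
RNA-seq log2 fold change (shRPS29 minus shCONT) of each tested gene of the 10 and of 6 related lists, with called genes filled, list medians as black lines and the median of all genes as a dashed line. The UFMylation list has its median at 0.43, and the other medians lie between -0.23 and 0.07.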

How the data were processed

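RNA-seq and Ribo-seq of SH-SY5Y cells gave 4 libraries each. The authors deposited raw counts per gene symbol, whole numbers in 1 table per assay, with 17927 genes in RNA-seq and 14019 in Ribo-seq. The submitters' processing notes name STAR, Salmon, Bowtie2, featureCounts and Trim Galore, and the build hg38. Their versions and roles, the counted strand and the annotation are not given here, nor whether footprints were limited to coding exons. Counts in introns or of shared spans can therefore enter a gene.

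Each assay was fitted alone on all its genes with edgeR 4.0.16 (R 4.3.3), using TMM factors, filterByExpr, the quasi-likelihood test and Benjamini-Hochberg adjustment. Translational efficiency was the assay-by-condition term of 1 edgeR model over 8 libraries. An SE is the size of the log2 fold change over the square root of its F statistic. Expected background is the median count per kb of span in genes with at most 0.1 RNA CPM, times the span in RefSeq (GRCh38.p14), where 17693 RNA-seq and 13956 Ribo-seq symbols matched. A ratio less background was formed only where every library kept counts above 0. DESeq2 1.42.0, limma-voom (limma 3.58.1), other filters and scalings, replicate blocks and leaving out each library were alternatives. In simulated counts with known changes, the edgeR fits recovered 70.8% of 1.5-fold and 98.5% of 4-fold changes in RNA-seq. Ribo-seq recovered 0% of 1.5-fold and 4.76% of 4-fold changes, and translational efficiency 0% of either. Each simulation changed 200 genes, fewer than the 944 called higher in Ribo-seq and the 309 in translational efficiency. Adjustment is stricter where fewer genes change, so these recovered shares do not carry over to the real fits. Levels are not compared between genes, since no transcript lengths were used. The members and lists were chosen with earlier results of these data known. Besides RPS29, the members and the genes that overlap them, the 3 genes of each list with the smallest RNA-seq p were to be named. Other list genes were named after their values were seen.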

Additional observations from a re-analysis of the deposited data

How the results depend on the processing

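Of the member values under alternatives, 91 of 100 in RNA-seq, 97 of 111 in Ribo-seq and 125 of 143 in translational efficiency kept their direction and call. In RNA-seq, leaving out 1 library gave 1225 to 2739 genes called higher and 1496 to 2876 lower, with 1 to 2 members higher and 1 to 3 lower. A minimum mean of 50 counts per group gave 2 members lower. Without a library, ASCC3 lay between -0.0038 and 0.23 and NEMF between -0.09 and 0.00013.

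In Ribo-seq, genes called lower numbered 171 with DESeq2 and 171 with limma-voom. The minimum of 50 counts gave 170 higher and 12 lower, and genes with at least 10 RNA CPM gave 339 and 27. Without a library there were 247 to 694 higher and 5 to 53 lower. USP10 was the 1 member called with DESeq2, limma-voom and at least 10 RNA CPM. Less the expected background, HBS1L was at -0.38, and ASCC3 and RNF10 gave no value. With at least 10 RNA CPM, NEMF was at 0.21 and RNF10 at 0.05. Without a library, HBS1L lay between -0.09 and 1.10, NEMF between -0.40 and 0.28 and RNF10 between -1.09 and 0.31.

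In translational efficiency, DESeq2 called 965 higher and 813 lower, limma-voom 484 and 274, and the minimum of 50 counts 67 and 27, while no count filter gave 60 lower. Members called higher numbered 0 with no count filter. The minimum of 50 counts left 3 members in the fit and USP10 out of it, so its 0 members higher is no lost call. Without a library there were 0 to 1778 genes higher and 0 to 2229 lower, with 0 to 2 members higher and 0 to 2 lower. HBS1L then lay between -0.01 and 1.18, NEMF between -0.36 and 0.31 and RNF10 between -0.48 and 0.94. RLE size factors put NEMF at 0.0021. The cause of these changes was not tested.

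With only 2 replicate numbers, and correlations of same-numbered deviations of -0.0377 in RNA-seq and 0.110 in Ribo-seq, the numbers were not taken to pair the libraries. The replicate block gave 397 genes lower in Ribo-seq and 1 member higher, USP10 (adjusted p = 0.0109). In translational efficiency it gave 22 higher, 0 lower and 0 members higher. A block by culture over both assays gave 49 lower, 0 members higher and NEMF at 0.01. The block moved the RNA-seq partners called higher to 1 and the large-subunit genes called higher to 1.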

Other observations

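Over the 4 RNA-seq libraries, the protein-coding genes whose centred log2 CPM lay nearest to that of ZNF598 among 12540 genes were BTBD6 (Euclidean distance 0.009), METAP1D (0.023) and ARHGAP36 (0.036). ZNF598 itself had a log2 fold change of 0.70, against 0.70 for BTBD6, 0.71 for METAP1D and 0.68 for ARHGAP36. With 4 libraries in 2 groups, this likeness describes little beyond the size of the group difference.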
